A study of Mus musculus with 10 samples.

Results

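The 10 genes Fos, Fosb, Jun, Junb, Egr1, Ier2, Atf3, Zfp36, Btg2 and Klf4, all of the immediate early response, were examined in single Bergmann glial cells of the mouse cerebellum. They were taken by name. The array annotation pairs 13 probe sets with 1 of these genes and no other, and all 13 had a value in every cell, out of 43608 such complete probe sets among the 45101 in the file. Bergmann glia are specialized astroglia whose somata lie beside the Purkinje neurons and whose fibres guide migrating granule neurons. Each array (Affymetrix Mouse Genome 430 2.0) held cDNA amplified from 1 cell, picked for GFP brightness and shape after papain treatment of tissue from the middle of the cerebellum, with 5 cells from P30 mice and 5 from P6 mice (postnatal day 30 and day 6). Mice of both ages carried the same transgene, GFP driven by the Gfap promoter, and were otherwise untreated as far as the labels say. That promoter is also active in other astrocytes, so that a picked cell rested on its shape as well. No label names the animal of a cell. Each age was therefore taken as 1 sample, no p-value was computed, and SDs and ranges describe the 5 cells of an age. The genes were selected with earlier results of the same cells known, and all differences below are descriptions of these 10 cells.

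Immediate early genes are transcribed within minutes of a stimulus by factors already present in the cell, such as SRF with its partners and CREB, and their mRNAs are short-lived. Many of the products are transcription factors or regulators of mRNA decay, which pass the signal on or end it. In the brain they serve as marks of recent signalling, and they are also known to respond to injury and to the handling of tissue. The cells of both ages went through enzymatic dissociation before they were picked. The values are those after that step, and its part in them was not tested.

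The promoters below show elements known to drive this response. They are 250 bases each from RefSeq (GRCm38.p6), 5′ to 3′, with motif matches on either strand in capitals. They lie just before the gene start, except that of Fosb. Fos is shown as the gene with the largest difference between ages, and Fosb as a close relative without such a difference. Among the 8 genes with a matched promoter, Zfp36 held the 1 CArG box, the SRF binding element, and Btg2 the 1 complete CRE, the CREB binding element. Egr1 and Ier2 had no matched promoter, and bases farther upstream were not searched for any gene. The regions are chr12:85473640-85473889 on the plus strand for Fos, chr7:19310046-19310295 on the minus strand for Fosb, chr7:28379229-28379478 on the minus strand for Zfp36 and chr1:134079156-134079405 on the minus strand for Btg2. The Fosb region reaches into the gene, which starts at 19310118 on that strand in the reference used here. Both motifs marked for Fosb lie in that part.
Fos promoter: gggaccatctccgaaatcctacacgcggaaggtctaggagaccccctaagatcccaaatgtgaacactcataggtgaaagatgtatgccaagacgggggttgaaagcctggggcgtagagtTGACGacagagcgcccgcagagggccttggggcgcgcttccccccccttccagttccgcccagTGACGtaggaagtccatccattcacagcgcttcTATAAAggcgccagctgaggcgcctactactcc
Fosb promoter: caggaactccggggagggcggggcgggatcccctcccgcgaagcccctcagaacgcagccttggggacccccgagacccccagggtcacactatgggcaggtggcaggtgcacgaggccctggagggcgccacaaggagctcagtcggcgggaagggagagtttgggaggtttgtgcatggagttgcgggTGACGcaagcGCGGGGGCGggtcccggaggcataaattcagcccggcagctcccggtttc
Zfp36 promoter: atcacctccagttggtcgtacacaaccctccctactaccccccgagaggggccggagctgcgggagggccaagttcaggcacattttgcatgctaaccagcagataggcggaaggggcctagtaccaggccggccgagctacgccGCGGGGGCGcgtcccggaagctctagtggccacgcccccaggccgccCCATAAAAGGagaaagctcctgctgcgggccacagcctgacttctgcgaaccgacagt
Btg2 promoter: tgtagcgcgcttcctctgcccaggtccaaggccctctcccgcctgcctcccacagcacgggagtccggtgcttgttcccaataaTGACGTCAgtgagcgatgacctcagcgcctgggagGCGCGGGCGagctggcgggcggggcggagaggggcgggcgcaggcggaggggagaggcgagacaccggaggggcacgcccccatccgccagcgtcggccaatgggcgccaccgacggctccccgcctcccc
Promoter sequences were matched for 8 of the 10 genes, all but Egr1 and Ier2. The CRE core TGACG was in 6 of the 8, among them Fos with 2 matches, against 19.8% of the 27025 genes with a promoter entry, and the complete CRE TGACGTCA, which contains the core, in 1 of 8 against 1.77% of genes. The Egr site GCGNGGGCG was in 4 of 8, namely Btg2, Fosb, Klf4 and Zfp36, against 5.33% of genes. A CArG box was in 1.62% of genes and the TATA box TATAAA, held by Fos alone of the 8, in 14.3%. The AP-1 site TGANTCA was in 0 of 8, against 7.82% of genes. Each is a match of letters in this window and no more, and those of Fosb lie inside the gene.

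All values below are the deposited ratios, in which a probe set was divided by a median of its own. They hold no level and cannot be compared between genes. The P6 median was exactly 1 in 10 of the 13 probe sets, so that in these a ratio of 1 marks a typical P6 cell. It was below 1 for Ier2 (a median log2 ratio of -2.20 at P6) and for 1 probe set each of Jun (1417409_at) and Klf4 (1417394_at). The lowest value is a floor of 0.01, and a fold against cells at the floor is a lower bound. Differences are P30 minus P6 of mean log2 ratios.

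Fos, Egr1 and Ier2 were far lower in P30 cells. The other 7 genes differed by less than 3-fold when the probe sets of a gene were averaged, but Jun and Btg2 lay close to it. Jun passed 3-fold with arrays scaled to hybridisation spikes (-1.61), without P30 replicate 2 (-1.70) and without P6 replicate 1 (-1.61). Btg2 passed it with spike scaling (-1.75), with medians in place of means (-1.77), without P30 replicate 3 (-2.15), without P6 replicate 1 (-1.87) and without P6 replicate 5 (-2.01). Over the 13 probe sets the mean was lower at P30 in 13, against 50.6% of all complete probe sets, and was over 3-fold lower at P30 in 4, against 11.1%. None was over 3-fold higher at P30, against 6.6%. In 1 of 13, that of Egr1, all P30 cells lay below all P6 cells, against 1.79%, and in 0 of 13 did all P30 cells lie above, against 1.2%. With the probe sets of a gene averaged, the mean was lower at P30 in 10 of 10 genes, against 52.4% of all genes, and all P30 cells lay below all P6 cells in 1, against 2.13%. The count of probe sets with P30 wholly below P6 came to 2 without P30 replicate 1 (Fos added), to 2 without P6 replicate 1 (1 probe set of Jun added), and to 3 without P6 replicate 5 (Fos and Ier2 added). The median log2 difference was -0.73 over the 13 probe sets, or -1.25 without P6 replicate 1, and -0.01 over all 43608. Since these values were known when the genes were selected, nothing is read from the shares.

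**Figure D1:**
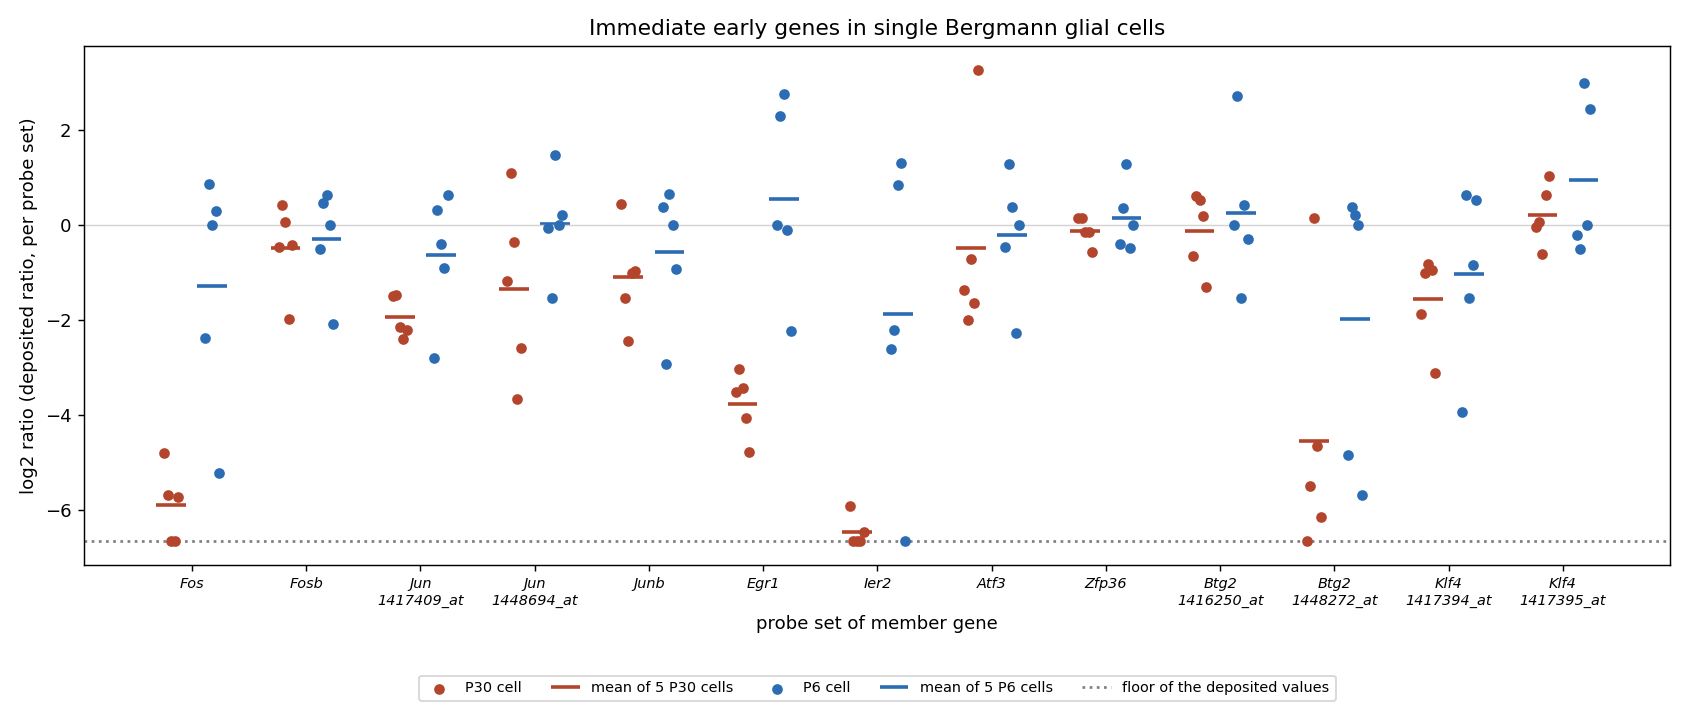
Log2 of the deposited ratio (y axis) in each of 5 P30 cells (left, red) and 5 P6 cells (right, blue) for the 13 probe sets (x axis), with the mean of each age as a bar and the floor of 0.01 as a dotted line. P30 cells lie low for Fos, Egr1 and Ier2, where P6 cells spread over several log2 units. The ages are fully apart for Egr1 alone. They overlap through P6 replicate 5 for Fos and Ier2, and overlap for the other genes.

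Fos encodes a leucine zipper subunit of the AP-1 transcription factor, which pairs with Jun proteins. Its ratio was 0.0362, 0.0197, 0.01, 0.01 and 0.0189 in P30 replicates 1 to 5, against 0.194, 1.81, 1, 1.23 and 0.0268 in P6 replicates 1 to 5. The P30 cells were uniformly low, with 2 of 5 at the floor, whereas P6 cells ranged from the P30 level in replicate 5 to about the typical value in replicates 2, 3 and 4. The log2 ratio was -5.89 ± 0.78 at P30 and -1.29 ± 2.52 at P6 (SD, n = 5 cells each), a difference of -4.61, or at least 24.4-fold lower at P30. The ages overlapped only through P6 replicate 5, which lay below P30 replicate 1. With a floor of 0.1 in place of 0.01 the difference was -2.42, so that its size rests on values near the floor. Its rank was 191 from the lowest of all 43608 differences.

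Egr1 encodes a zinc finger transcription factor that binds GC-rich sites and is a common mark of activated neurons and glia. Its ratio was 0.0876, 0.122, 0.0934, 0.0604 and 0.0364 in P30 replicates 1 to 5, against 1, 4.91, 6.72, 0.932 and 0.213 in P6 replicates 1 to 5. Every P30 cell lay below every P6 cell and none was at the floor. The log2 ratio was -3.76 ± 0.68 at P30 and 0.54 ± 2.02 at P6 (SD, n = 5 cells each), and the difference of -4.30 made it 19.7-fold lower at P30. Leaving out any 1 cell kept the difference between -4.99 and -3.75.

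Ier2 encodes a small nuclear protein that is induced together with Fos and whose role is less well defined. Its ratio was 0.0167, 0.01, 0.01, 0.01 and 0.0114 in P30 replicates 1 to 5, against 0.164, 0.218, 1.78, 2.45 and 0.01 in P6 replicates 1 to 5. The P30 cells were at or close to the floor, and so was P6 replicate 5, while the other 4 P6 cells lay above all P30 cells. The log2 ratio was -6.46 ± 0.32 at P30 and -1.86 ± 3.19 at P6 (SD, n = 5 cells each), a difference of -4.59. Cells of both ages were at the floor, so that this is no bound, and with a floor of 0.1 the difference was -2.12.

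Among the other AP-1 subunits, Fosb and Junb overlapped between ages and Jun was lower at P30 by less than Fos. For Fosb, the closest relative of Fos, the ratio was 0.725, 1.35, 1.04, 0.256 and 0.745 in P30 replicates 1 to 5, against 0.703, 1.38, 1.54, 1 and 0.237 in P6 replicates 1 to 5. The ages overlapped almost fully, at a log2 ratio of -0.47 ± 0.91 at P30 and -0.30 ± 1.09 at P6 (SD, n = 5 cells each), and the difference of -0.17 was smaller than the SD of either age. Junb, a Jun relative that can restrain growth, had 1.36, 0.343, 0.185, 0.496 and 0.513 in P30 replicates 1 to 5, against 1.30, 0.131, 1.58, 1 and 0.528 in P6 replicates 1 to 5. Its lowest cell was P6 replicate 2, and its difference of -0.54 also lay within the spread of the cells (SD 1.05 at P30 and 1.45 at P6, n = 5 each).

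Jun, the usual partner of Fos, was measured by 2 probe sets. In 1417409_at the ratio was 0.357, 0.360, 0.227, 0.190 and 0.218 in P30 replicates 1 to 5, against 0.145, 1.25, 0.755, 0.534 and 1.55 in P6 replicates 1 to 5. All P6 cells but replicate 1 lay above all P30 cells, and the difference was -1.31. In 1448694_at it was 0.441, 2.15, 0.779, 0.0790 and 0.166 in P30 replicates 1 to 5, against 0.964, 0.345, 2.78, 1 and 1.16 in P6 replicates 1 to 5. Here the difference was -1.36 but the ages overlapped widely. Both probe sets put P30 replicate 2 highest and P30 replicate 4 lowest at P30, whereas the lowest P6 cell was replicate 1 in 1417409_at and replicate 2 in 1448694_at. Averaged over both, Jun was 2.52-fold lower at P30.

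Atf3 encodes a stress-induced leucine zipper protein of the ATF/CREB family that can pair with Jun. Its ratio was 0.390, 0.249, 0.605, 0.320 and 9.64 in P30 replicates 1 to 5, against 0.724, 2.42, 1.30, 0.207 and 1 in P6 replicates 1 to 5. The highest value of all 10 cells was that of P30 replicate 5, the cell in which endothelial and pericyte markers also stood apart, while the other 4 P30 cells lay below all P6 cells but replicate 4. The difference was -0.28 over all cells and -1.22 without P30 replicate 5.

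Among the remaining genes, Zfp36 varied least. It encodes tristetraprolin, which binds AU-rich elements and speeds the decay of mRNAs, among them those of immediate early genes. Its ratio was 1.10, 1.11, 0.906, 0.897 and 0.671 in P30 replicates 1 to 5, against 0.761, 1.28, 2.44, 0.715 and 1 in P6 replicates 1 to 5. The ages overlapped, and the difference of -0.27 was smaller than the SD at either age (0.30 at P30 and 0.72 at P6, n = 5 each). Btg2, an antiproliferative protein that promotes the shortening of poly(A) tails, was measured by 2 probe sets that differed. In 1416250_at the ratio was 0.639, 1.53, 1.44, 1.14 and 0.408 in P30 replicates 1 to 5, against 1, 6.52, 0.344, 1.35 and 0.818 in P6 replicates 1 to 5, a difference of -0.38. In 1448272_at it was 0.01, 0.0224, 1.12, 0.0400 and 0.0142 in P30 replicates 1 to 5, against 0.0349, 1.31, 1.16, 1 and 0.0197 in P6 replicates 1 to 5. This probe set was near typical or close to the floor in each cell with little between, being high in 1 of 5 P30 cells and 3 of 5 P6 cells, with a difference of -2.57, or at least 5.93-fold lower at P30. With a floor of 0.1 its difference was -1.42, under 3-fold. P6 replicates 1 and 5, which were low for it, were also the lowest P6 cells for Fos.

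Klf4, a Krüppel-like zinc finger transcription factor of growth control and stem cells, also had 2 probe sets. In 1417394_at the ratio was 0.272, 0.498, 0.564, 0.517 and 0.115 in P30 replicates 1 to 5, against 0.0657, 1.56, 0.345, 0.559 and 1.44 in P6 replicates 1 to 5. In 1417395_at it was 0.972, 1.04, 0.660, 1.55 and 2.03 in P30 replicates 1 to 5, against 0.862, 0.702, 7.96, 1 and 5.39 in P6 replicates 1 to 5. Both probe sets overlapped between ages, at differences of -0.53 and -0.73, with P6 replicate 5 the next to highest P6 cell in both.

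The cells of an age differed more at P6 than at P30 for these genes. The SD of log2 ratios was smaller at P30 in 11 of the 13 probe sets, against 45.0% of all complete probe sets, and its median was 0.82 at P30 and 1.55 at P6, where all probe sets had medians of 1.13 at P30 and 1.08 at P6. Values at the floor, which show no spread, made up 6 of 65 at P30 and 1 of 65 at P6, where they were 1.73% of all P30 values and 1.07% of all P6 values. P6 replicate 5 was the lowest P6 cell in 5 of the 13 probe sets, those of Fos, Fosb, Egr1 and Ier2 and 1 of Btg2, and the highest in 1 of Jun. P6 replicate 3 was the highest in 6, those of Fosb, Junb, Egr1 and Zfp36 and 1 each of Jun and Klf4. No share over all probe sets is given for these counts. The median log2 ratio of all probe sets was -0.14 in P6 replicate 5, against -0.01 to 0 in the other P6 cells. Over the 10 cells, with the mean of each age removed, Pearson's r was 0.83 for Fos with Ier2 (Spearman's rho 0.62), 0.78 for Fosb with Egr1 (rho 0.79), 0.77 for Fos with Egr1 (rho 0.55), 0.77 for Fos with Fosb (rho 0.69) and 0.71 for Egr1 with Zfp36 (rho 0.83). These were the 5 pairs above 0.7 of 45, and the median over the 45 was 0.06. Without the 2 cells farthest from the median of the gene named first, r was 0.86, 0.81, 0.33, 0.47 and 0.80 in the same order, so that the relations of Fos with Egr1 and with Fosb rested on those cells. Genes of a cell share its array and its amplification, and r is given as a description. Junb with Btg2 had the lowest r, at -0.63.

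**Figure D2:**
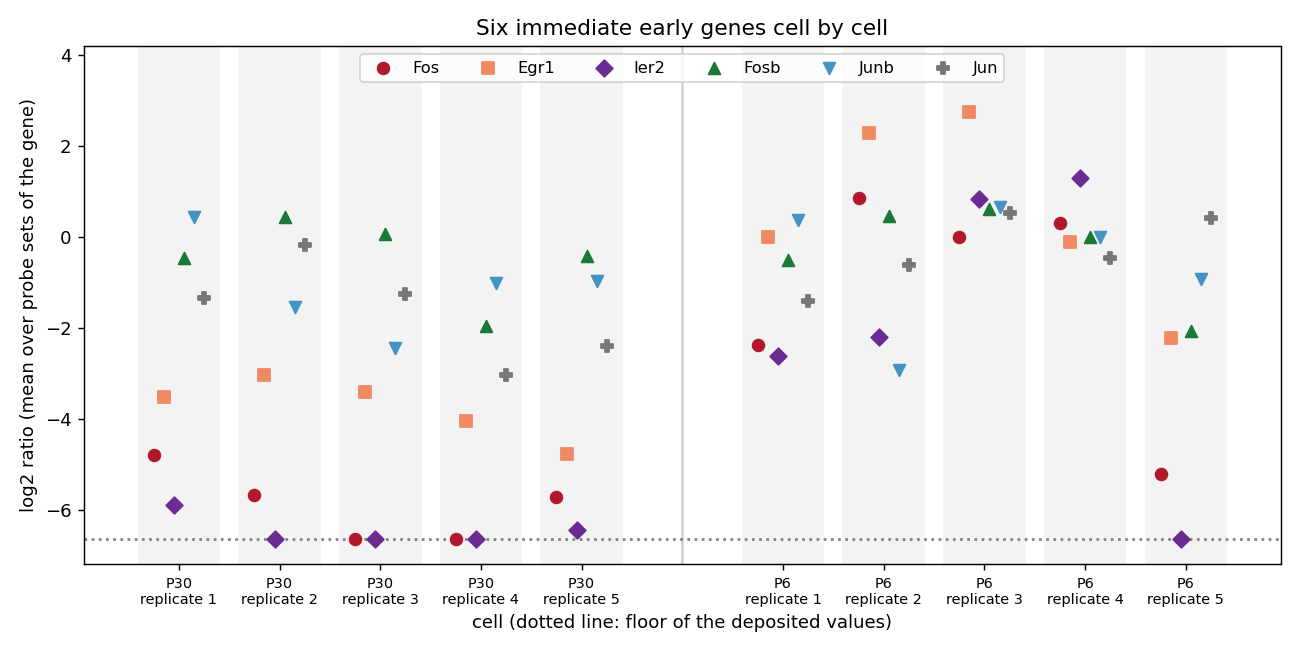
Log2 ratio (y axis, mean over the probe sets of a gene) of Fos, Egr1, Ier2, Fosb, Junb and Jun in each cell (x axis, P30 cells left, P6 cells right), with the floor as a dotted line. In P6 replicate 5 Fos and Ier2 stand at -5.22 and -6.64, as low as in P30 cells, while Jun stands at 0.42.

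Marker lists showed which cells stood apart. Set beside the remaining 4 cells of the same age (by their median), P6 replicate 5 was higher by a median of 3.34 on the log2 scale over 11 neuronal markers and was the highest P6 cell in 6 of the 11 and the lowest in 2, the neurofilament gene Nefl (-1.40) and the synaptotagmin gene Syt1 (-0.38). Gap43, a gene of growing axons, was at 3.33 in it and at -0.64 to 0.17 in the other P6 cells, and the neurofilament gene Nefm at 0.98 where the P6 median of -6.52 was near the floor. Syp, a synaptic vesicle gene, was as high in P6 replicate 4 (4.35) as in P6 replicate 5 (4.33). P30 replicate 5 was higher by 4.35 over 10 endothelial and pericyte markers, the highest P30 cell in 9 of the 10, and by 2.58 over 5 Purkinje neuron markers, being the highest P30 cell in 3 of the 5 and the lowest in 2 (Car8 and Gad1). P6 replicate 2, the highest P6 cell in 5 of the 13 probe sets of the 10 genes, was higher by 1.28 on the Purkinje neuron list and the highest P6 cell in 4 of the 5. Median log2 ratios of the neuronal list ranged from -0.83 to -0.31 in P30 cells and from -0.63 to 2.37 in P6 cells. Those of the endothelial and pericyte list ranged from -0.88 to 4.63 in P30 cells and from -0.28 to -0.01 in P6 cells. Single genes of this list also stood high elsewhere. P6 replicate 5 had Kdr at 5.94, above the 5.28 of P30 replicate 5, and Cldn5 at 1.97, below its 3.98. It was the highest P6 cell for 2 of the 10 genes and the lowest for 2. Pdgfrb reached 6.24 for P30 replicate 5, but also 6.21 for P30 replicate 2 and 5.77 for P6 replicate 1. Astroglial markers (14 genes) deviated by medians of -0.77 in P30 replicate 5 and -0.48 in P6 replicate 5. The median log2 ratio of all probe sets was also low in these cells. It was -0.46 in P30 replicate 5, against -0.13 to -0.10 in the other P30 cells, and -0.14 in P6 replicate 5, against -0.01 to 0 in the other P6 cells. The medians of granule neuron, oligodendrocyte and microglial markers deviated by less than 1 in every cell, except for granule neuron markers in P30 replicate 5 (1.29). Single oligodendrocyte markers went further. Cldn11 was at 6.17 in P30 replicate 4 and 3.55 in P30 replicate 5, against -1.76 to -0.69 in the other P30 cells. Mobp was at 2.61 and 2.96 in these 2 cells. P30 replicate 4 was the highest P30 cell in 3 of the 9 oligodendrocyte markers and the lowest in 3. The part of these markers in the results was not tested. Ratios hold no level, so that the expression of astroglial markers itself could not be read from them. By its own account, the study chose cDNAs by PCR and Southern blot. They had to hold Gfap, Fabp7, Sept4 and Slc1a3 and to lack Nefl and Mtap2, and in some cases tubulin beta-III was checked too. This choice applied to the cells of both ages. In P6 replicate 5 the log2 ratio was -1.40 for Nefl, -0.22 for Map2 (Mtap2) and 3.44 for the tubulin beta-III gene Tubb3. The part of the choice in these values was not tested. On the arrays the study reported several markers of neurons, oligodendrocytes and microglia as low or absent. Without P6 replicate 5 and P30 replicate 5, chosen after seeing the data, the difference was -5.63 for Fos, -4.74 for Egr1 and -5.79 for Ier2. All P30 cells then lay below all P6 cells for the 3 genes. Leaving out P6 replicate 5 alone fixed that separation, since no other P6 cell overlapped P30 cells for Fos and Ier2. Without both cells the difference was smaller for Jun (-0.96) and Klf4 (-0.15). In that setting 1 probe set of Klf4 was higher at P30 by 0.25, so that 12 of 13 were lower.

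**Figure D3:**
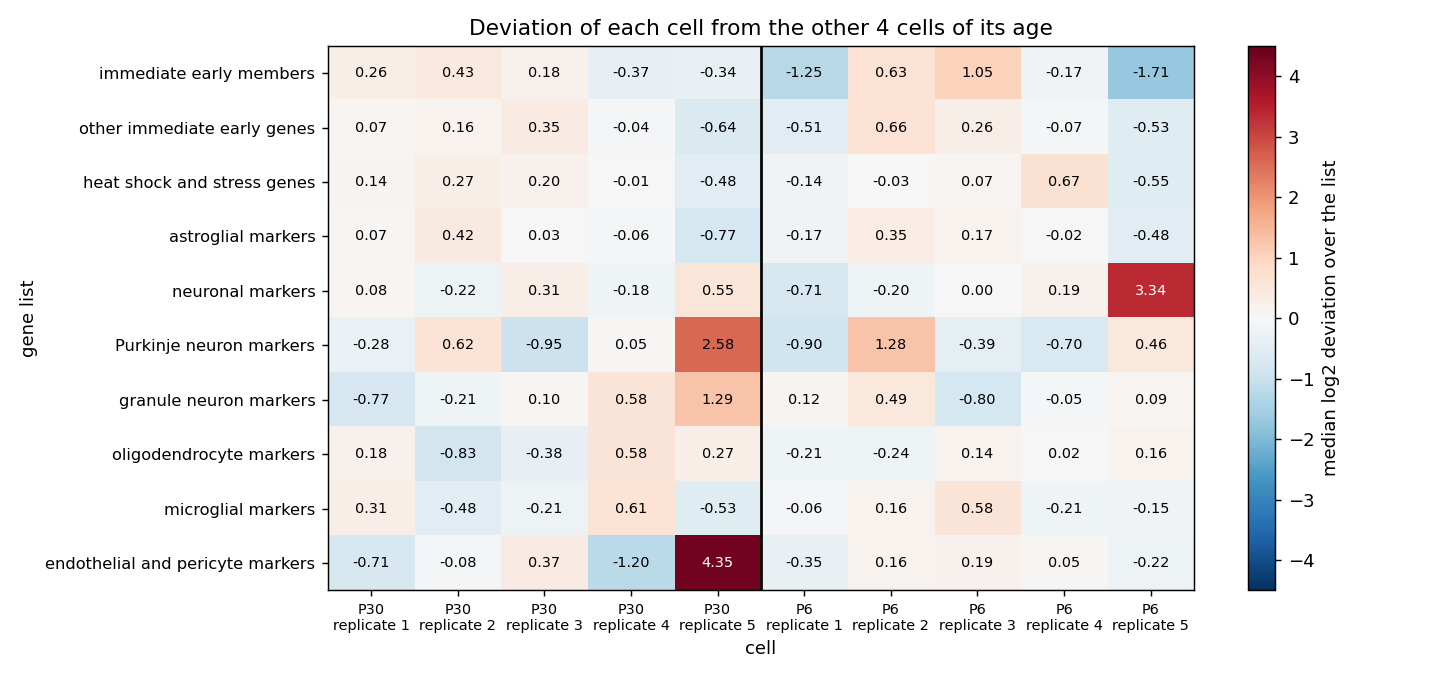
Median log2 deviation of each gene list (rows) in each cell (columns, P30 left, P6 right), taken against the median over the remaining 4 cells of that age. The 10 immediate early genes are lowest in P6 replicate 5 (-1.71), where neuronal markers are at 3.34, and endothelial and pericyte markers are at 4.35 in P30 replicate 5.

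Of 54 further immediate early genes from a list, all of which had a probe set with values in every cell, 37 had a lower and 17 a higher mean at P30, with a median difference of -0.40, against -0.05 over all 17919 genes. Over 3-fold lower at P30 were 5 of 54, against 9.39% of all genes, and over 3-fold higher was 1, against 4.93%. With arrays scaled to the spikes the split was 43 lower and 11 higher at P30, and 8 were over 3-fold lower. That scaling moved every difference by -0.28 and the median over all probe sets to -0.29. With arrays scaled to their medians the split was 35 lower and 19 higher, and 5 were over 3-fold lower. No share over all genes is given for either scaling. Of the 5 over 3-fold lower without scaling, none had all P30 cells apart from all P6 cells. The largest differences were those of Per1, a clock gene that also responds to stimuli, at -2.26, the zinc finger factor gene Egr2 at -2.22 and the Krüppel-like factor gene Klf10 at -2.03. Per1 was at the floor in P30 replicates 1 and 5 and in P6 replicate 1, so that its difference is no bound. Klf10 ranged from -6.63 to 0.06 in P30 cells and from -6.56 to 0.11 in P6 cells. Egr2 had -3.16, -4.54, -3.25, -3.27 and -3.63 in P30 replicates 1 to 5, against -3.32, -4.45, 2.94, 1.72 and -3.62 in P6 replicates 1 to 5, as mean log2 ratios over 2 probe sets, with a probe set at the floor in 4 P30 and 3 P6 cells. It was thus high in P6 replicates 3 and 4 only. The polo-like kinase gene Plk3 and the Krüppel-like factor gene Klf6 (-1.82) completed the 5. Cebpd, a leucine zipper factor gene of acute responses, was the 1 gene of the list with all P30 cells above all P6 cells, against 1.41% of genes, at 0.78 to 1.68 in P30 cells and -0.50 to 0.56 in P6 cells. P6 replicate 5 was the lowest P6 cell in 17 of the 54 genes and the highest in 7. Among the 17 were the orphan nuclear receptor gene Nr4a1 (-5.36) and Dusp1 (-4.08), a phosphatase gene that ends MAP kinase signals, as Fos was lowest in it. Among the 7 were Nfil3 (5.04) and Plk3 (1.49). These 4 genes were picked after their values were seen. No share over all genes is given for the counts of 17 and 7, and nothing is read from them. P6 replicate 5 was also the lowest P6 cell in 6 of 14 astroglial markers and the highest in 1. Of 24 genes that carry signals to immediate early promoters it was the lowest in 7 and the highest in 2.

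**Figure D4:**
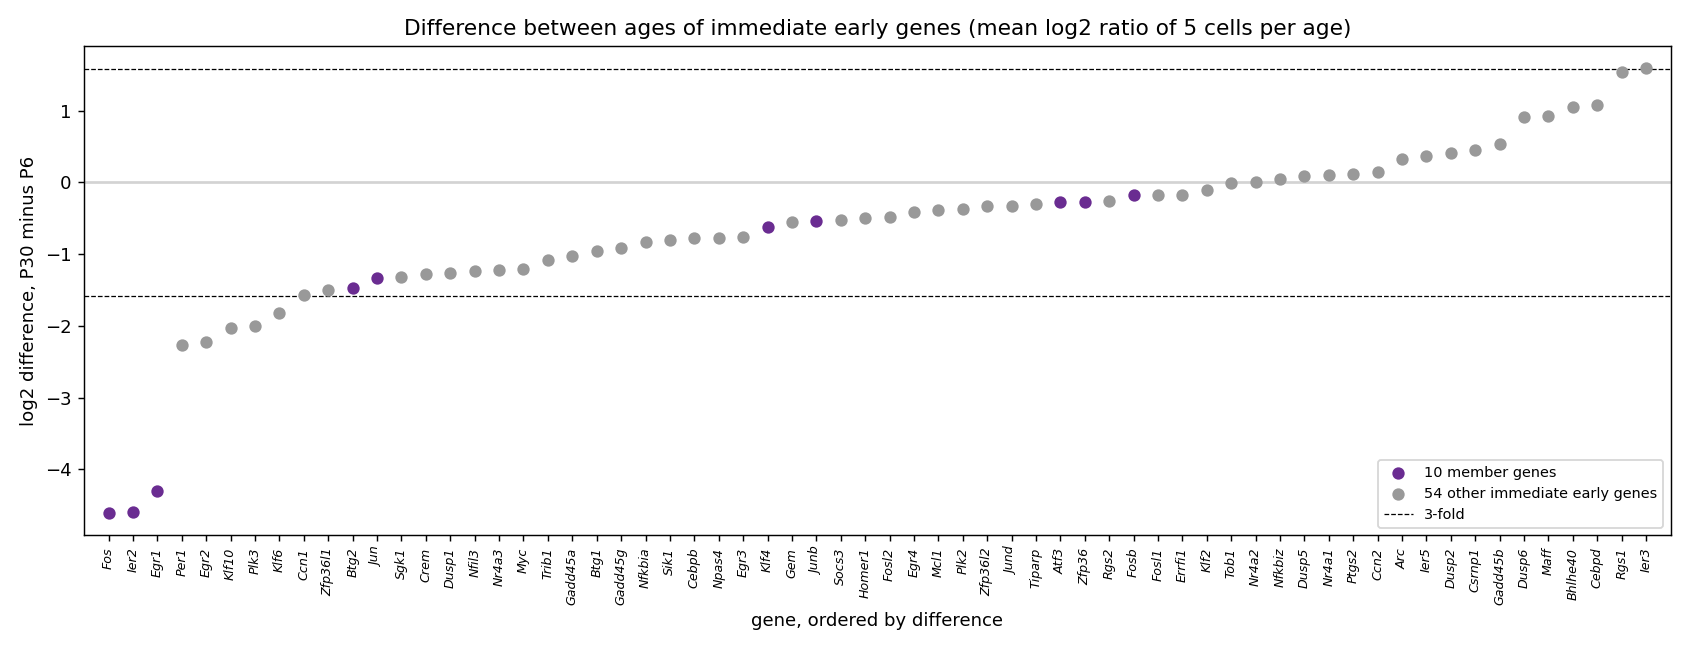
Difference between ages (y axis, mean log2 ratio of 5 P30 cells minus that of 5 P6 cells) of the 10 genes (purple) and 54 other immediate early genes (grey), ordered by size (x axis), with dashed lines at 3-fold. Fos, Ier2 and Egr1 stand at -4.61, -4.59 and -4.30, below Per1 at -2.26, and the other 7 genes lie among the grey points.

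Genes with a cell-by-cell pattern most like that of Fos were found by Pearson's r over the 10 cells among 17909 other genes. The 5 highest were Il7r (r = 0.98), a cytokine receptor gene, Nes (0.95), which encodes the progenitor intermediate filament nestin, the Notch effector gene Hes5 (0.95), Gask1b (0.95) and Smad6 (0.95), an inhibitor of BMP signalling. All 5 were lower at P30, by log2 differences of -1.84 for Il7r, -3.03 for Nes, -5.38 for Hes5, -4.39 for Gask1b and -2.02 for Smad6. For the mean of the 10 genes the 5 highest were Il17rd (0.95), 1700008O03Rik (0.95), Igsf23 (0.94), A530047J11Rik (0.94) and Zfhx4 (0.94). The difference between ages enters each r, and the highest of so many values over 10 cells is large for any profile.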

How the data were processed

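Amplified cDNA of 10 single cells, 5 at P30 and 5 at P6, was hybridised to 1 array each. According to the study's methods, the authors processed the scans with RMA in GeneSpring GX, set values under 0.01 to 0.01 and scaled every array to its median, followed by every probe set to its median over all samples. Such ratios, on a linear scale, are what was deposited by the authors (range up to 961.5). A P6 cell was at exactly 1 in 81.4% of the complete probe sets and a P30 cell in 0.206%, so that the divisor appears to come from P6 cells, which differs from the stated median over all samples. The build behind the authors' probe annotation is not given in the sources used here (GRCm38.p6 below is that of the reference tables), and no detection call or signal over background entered the analysis.

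Of 45101 probe sets, 1493 were dropped for blanks (1013 of them lacked values at P6 only), and 10 values of 0 were set to 0.01. Reference symbols (GRCm38.p6) replaced array symbols through Entrez IDs where the IDs matched (34754 of 34958 probe sets with 1 gene). A gene's value is the mean over its probe sets. Reverse transcription from the poly(A) tail yielded short cDNA, so that probe sets far from the 3′ end can read low, and probe positions were not analysed here.

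Mean log2 ratios of P30 cells minus those of P6 cells gave the comparison of ages, read at 3-fold, and the overlap of the cells was recorded. The methods' one-way ANOVA was not used, since no animal is named. The steps were tested on simulated data. The genes, gene lists and alternatives were chosen with earlier results of these data known. The genes named beside the 10 are the 3 with the largest absolute difference in each further list, those over 3-fold without overlap, and the 5 most like Fos and most like the mean of the 10. Others are named where a count or a cell turned on them, after their values were seen. Python 3.11.15, NumPy 2.4.6, pandas 2.3.3 and Matplotlib 3.10.9 were used. Alternatives were scaling of the arrays to their medians or to 18 hybridisation spike probe sets, medians in place of means, a floor of 0.1, a 2-fold rule, exclusion of _x_at and _s_at probe sets, omission of each cell in turn and, added after seeing the data, omission of both cells high in neuronal or endothelial markers. Precision is limited by the 10 arrays.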

Additional observations from a re-analysis of the deposited data

Results flagged for a closer look

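Of 26 sets of 5 cells (13 probe sets at 2 ages), 2 held a cell set apart from the other 4 by a gap over range above Dixon's critical value of 0.71, where chance alone gives about 1 in 20. Atf3 in P30 replicate 5 had a log2 ratio of 3.27, against -2.01 to -0.72 in the other P30 cells. Endothelial and pericyte markers were higher in that cell by a median of 4.35, and their part in the Atf3 value was not tested. Ier2 in P30 replicate 1 had a log2 ratio of -5.90, against -6.64 to -6.45 in the other P30 cells, 3 of which were at the floor.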

How the results depend on the processing

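No paired analysis was possible because the replicate numbers only name cells and no result comes from a test. The mean was lower at P30 in 13 of 13 probe sets with either scaling of the arrays and with a floor of 0.1, in 11 with medians in place of means, and in 10 to 13 when 1 cell was left out. Scaling to array medians moved each difference by 0.16 and scaling to the spikes by -0.28. The count of probe sets with all P30 cells below all P6 cells was 2 with spike scaling (Fos and Egr1) and 3 without both cells high in neuronal or endothelial markers, a setting added after seeing the data. Leaving out P6 replicate 5 alone gave the same 3. The count was 1 to 3 when 1 cell was left out, and the median difference was then -1.25 to -0.63. The count over 3-fold lower at P30 was 3 with a floor of 0.1, 5 with spike scaling or with medians, 4 to 5 when 1 cell was left out and 6 with a 2-fold rule. When 1 cell was left out, differences of Fosb reached 0.20, of Atf3 0.10 and of Zfp36 0.02, while those of Fos stayed between -5.59 and -4.07 and those of Ier2 between -5.79 and -3.80. No probe set of the 10 genes ends in _x_at or _s_at, and Zfp36 alone has the ending _a_at. With 5 cells an age and ratios that hold no level, a gene near background at both ages cannot be told from one expressed at both.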

Other observations

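Genes that carry signals to the immediate early promoters were examined from a further list of 31, of which 24 had a value here. Means were lower at P30 for 18 (against 52.4% of all genes) and higher for 6, or 15 and 9 with arrays scaled to their medians, with a median difference of -0.53, and 6 were over 3-fold lower at P30, against 9.39% of all genes. Rela, which encodes a subunit of NF-kappaB, had the largest difference at -3.41, with log2 ratios of -5.73 to -0.70 in P30 cells and -0.82 to 0.82 in P6 cells. Ep300, a histone acetyltransferase gene, was at -2.11, with -3.89 to 0.46 in P30 cells and -0.88 to 0.23 in P6 cells. Its highest cell was P30 replicate 1. Mapk10, which encodes a JNK kinase found mainly in neurons, was higher at P30 by 3.07, at 1.48 to 2.80 in P30 cells and -2.88 to 0.71 in P6 cells, and was the 1 gene of the list with all P30 cells above all P6 cells. The regulators of Fos named above overlapped between ages, with a difference of -0.74 for Srf and 0.38 for Creb1, picked after their values were seen.

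Of 19 heat shock and stress genes with a value, 13 had a lower and 6 a higher mean at P30, or 9 lower and 10 higher with arrays scaled to their medians. The median difference was -0.15, or 0.01 with that scaling. Over 3-fold lower at P30 were 0, against 9.39% of all genes, and over 3-fold higher were 2, against 4.93%. Hsph1, a chaperone gene, was higher at P30 by 2.41 (-0.04 to 3.22 in P30 cells and -2.79 to 0.92 in P6 cells) and Bag3, a co-chaperone gene, by 2.12, with 5.81 in P30 replicate 1 and 3.22 in P6 replicate 1. Hspa1b, an inducible chaperone gene, was lower at P30 by a log2 difference of -1.44. The ages overlapped for these 3 genes.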
